A study of Mus musculus with 6 samples.

Results

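Fibroblast growth factor (FGF) signalling switches on its own inhibitors, and the 10 mouse genes described here are such feedback inhibitors together with 2 ETS transcription factors of the same response. They comprise Sprouty genes (Spry1, Spry2, Spry4), Spred genes (Spred1, Spred2), MAP kinase phosphatase genes (Dusp2, Dusp4, Dusp6) and Pea3-family ETS genes (Etv4, Etv5). Members were the probe sets that the platform annotation gives to exactly 1 of these symbols, which yielded 15 of the 22626 probe sets tested and 9 of 12393 genes. Dusp4 was not analysed here. The study measured RNA on Affymetrix MOE430A arrays in the tail tissue behind the newest somite, the presomitic mesoderm level, taken from mouse embryos 9.5 days after conception. One group held 3 pools homozygous for the neo allele of Dll3 (Dll3neo/neo, also written Dll3-tm1Rbe/tm1Rbe, on c57bl/6), and the other held 3 wild-type pools (Dll3+/+, c57bl/6). Each pool mixed tissue of several germ layers from several embryos, the sources used here not giving their number.

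FGF made in the tail bud acts through its receptors on Ras, Raf, MEK and ERK, and keeps the posterior presomitic mesoderm unsegmented. ERK activity raises transcription of Etv4 and Etv5, which encode ETS factors, and of inhibitors that act back on the cascade. Sprouty and Spred proteins restrain Ras and Raf activation, while nuclear Dusp2 and Dusp4 and cytoplasmic Dusp6 are phosphatases that remove the activating phosphates of ERK. In the mouse presomitic mesoderm Spry2, Spry4, Dusp2, Dusp4 and Dusp6 have been described as cyclic, with expression that oscillates with the segmentation clock. Spry1, Spred1, Spred2, Etv4 and Etv5 are not counted as cyclic here. Dll3 encodes a divergent Notch ligand needed for a regular clock, and the comparison asked how this FGF and ERK output stood in the mutant.

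The start regions of the cyclic members Dusp6, Spry2 and Dusp2 are shown because Pea3 factors bind the ETS core GGAA and Rbpj, the DNA-binding partner of activated Notch, binds the core TGGGAA. Each window runs from 250 bases before to 50 bases after the gene's start, from RefSeq on GRCm38.p6, written 5′ to 3′ along the gene's strand, with GGAA or its complement TTCC in capitals.
Dusp6, chr10:99262981-99263280, plus strand: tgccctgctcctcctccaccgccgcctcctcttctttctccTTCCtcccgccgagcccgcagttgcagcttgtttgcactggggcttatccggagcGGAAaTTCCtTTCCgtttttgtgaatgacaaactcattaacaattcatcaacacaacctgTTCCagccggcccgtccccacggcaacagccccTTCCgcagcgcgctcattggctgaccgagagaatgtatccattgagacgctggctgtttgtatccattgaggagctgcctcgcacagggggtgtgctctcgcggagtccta
Spry2, chr14:105896770-105897069, minus strand: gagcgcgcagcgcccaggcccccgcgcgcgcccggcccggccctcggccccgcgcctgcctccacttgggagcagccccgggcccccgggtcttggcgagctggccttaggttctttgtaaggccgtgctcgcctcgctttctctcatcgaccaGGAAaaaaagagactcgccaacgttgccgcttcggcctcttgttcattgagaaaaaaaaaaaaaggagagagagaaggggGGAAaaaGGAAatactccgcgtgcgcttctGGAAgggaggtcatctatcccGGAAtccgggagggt
Dusp2, chr2:127335909-127336208, plus strand: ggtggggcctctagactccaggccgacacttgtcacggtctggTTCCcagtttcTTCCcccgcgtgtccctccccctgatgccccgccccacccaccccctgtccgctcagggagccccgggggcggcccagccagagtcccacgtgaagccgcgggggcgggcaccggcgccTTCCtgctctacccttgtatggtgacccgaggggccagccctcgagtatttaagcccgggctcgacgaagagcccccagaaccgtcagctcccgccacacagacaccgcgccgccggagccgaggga
On either strand the Dusp6 window held 6 GGAA cores, the Spry2 window 5 and the Dusp2 window 3, where all 32851 windows of this length had a median of 3 and 96% held at least 1. The longer ETS form CCGGAA occurred in the Spry2 window, beginning at base 34 counted from the start as 1, and in 1 of the 8 windows of members, against 14.9% of all windows. TGGGAA, which contains GGAA, occurred in the Dusp2 window, beginning 207 bases before the start, and in 3 of the 8 windows of members, against 25.6% of all windows. The 8 windows belonged to 7 members, Etv5 having 2. No window was at hand for Spry4, Etv4 or Dusp4, so their start regions were not examined. Of the members outside the cyclic ones, Spred1 had 5 GGAA cores, Spred2 7, Spry1 1 and the 2 windows of Etv5 6 and 0. Besides Dusp2, TGGGAA occurred in the Spred2 window, beginning 59 bases before the start, and 2 times in 1 Etv5 window. A match of letters is a description of the window and shows no binding.

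In the values below most probe sets, and every member, were divided by their median across the 6 arrays. Such values compare pools and say nothing of absolute level. No member's median lay under the floor that the file seems to apply, which 1640 other probe sets fell below. Those 1640, not at a median of 1, include probe sets of some marker genes in the lists below, such as Myh6 of heart muscle and Meox2 of somites. Dll3 itself was the 1 probe set past the threshold over the whole table, or 0.00442% of those tested, with ratios of 0.48, 0.476 and 0.537 in Dll3neo/neo pools 1, 2 and 3 and of 1.463, 1.633 and 2.007 in wild-type pools 1, 2 and 3 (limma adjusted p = 0.00691). Its log2 difference stayed between -1.87 and -1.64 in every set of 5 pools, but its call was lost without Dll3neo/neo pool 1, 2 or 3 or wild-type pool 2 (adjusted p = 0.0627 to 0.0924). Wild-type pool 3 stood apart: the median absolute deviation of its log2 ratios was 0.201, against 0.0555 to 0.106 in the other 5 arrays, and it held the highest or lowest value of 63.6% of all probe sets and of 10 of the 15 member probe sets. Heart muscle genes marked Dll3neo/neo pool 1, with a median log2 ratio of 3.26 over 7 genes, against -0.068 and -0.051 in Dll3neo/neo pools 2 and 3 and -0.28, -0.025 and -0.25 in the wild-type pools. Since ratios carry no level, the presence of the labelled tissue could not be checked from marker levels. In pooled tissue, fewer cells of a type and less RNA per cell cannot be told apart.

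None of the 15 member probe sets passed the test, and 8 of them differed by under 0.1 on the log2 scale, or 53.3%, against 63.6% of all probe sets. Spry4 was lower in the Dll3neo/neo pools in both of its probe sets, and one of these, 1422021_at, was the 1 member probe set whose groups did not overlap, where 5.03% of all probe sets did not overlap and 1.99% did so with the mutant lower. Dusp6, one Etv5 and 2 Spred1 probe sets were lower by 0.16 to 0.24 on the log2 scale with overlapping groups, and Spred2 1434403_at was higher by 0.15, also with overlap. Each member probe set had a limma adjusted p of 0.9999, and 0 of 15 had an unadjusted p under 0.05, against 1.16% of all probe sets. The smallest unadjusted p among them was 0.0589. By sign, 10 of the 15 were lower in the mutant and 5 higher, where 50.9% of all probe sets were lower. The median size of the log2 difference was 0.0731 over the member probe sets and 0.073 over all probe sets.

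**Figure D1:**
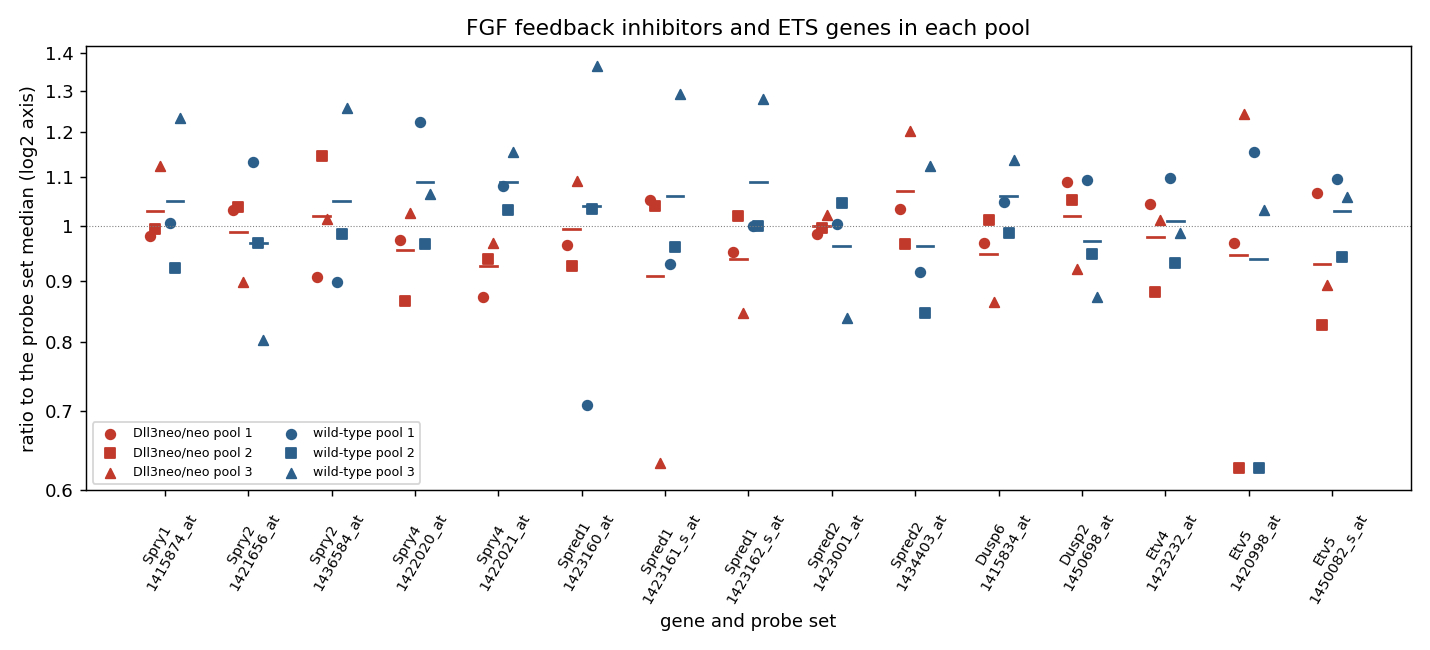
Ratio of each member probe set to its own median (y axis, log2 scale) in every pool, with the Dll3neo/neo pools in red left of the wild-type pools in blue and a bar at each mean of 3 pools. The groups are separated for Spry4 1422021_at alone, where the Dll3neo/neo pools reach at most 0.968 and the wild-type pools at least 1.032.

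Sprouty genes encode membrane-associated inhibitors of receptor tyrosine kinase signalling. Spry4, by probe set 1422021_at, had ratios of 0.873, 0.939 and 0.968 in Dll3neo/neo pools 1, 2 and 3, and of 1.082, 1.032 and 1.155 in wild-type pools 1, 2 and 3. All mutant values lay below all wild-type values, with means of 0.927 ± 0.0487 and 1.09 ± 0.0619 (SD, n = 3 each). The log2 difference was -0.23 (SE 0.11, 95% interval -0.48 to 0.011, limma adjusted p = 0.9999), a 1.18-fold lower level that kept its sign without each pool in turn (-0.27 to -0.19). Its other probe set, 1422020_at, had 0.974, 0.865 and 1.026 in the Dll3neo/neo pools and 1.225, 0.967 and 1.064 in the wild-type pools. There wild-type pool 2 lay between the mutant values, the log2 difference was -0.18 (95% interval -0.47 to 0.11), and without wild-type pool 1 it was -0.091.

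Spry2, a cyclic Sprouty gene, hardly differed between the genotypes and was read differently by its probe sets. By 1436584_at its ratios were 0.906, 1.147 and 1.015 in Dll3neo/neo pools 1, 2 and 3 and 0.898, 0.985 and 1.257 in wild-type pools 1, 2 and 3. By 1421656_at they were 1.032, 1.039 and 0.898 in the Dll3neo/neo pools and 1.133, 0.968 and 0.803 in the wild-type pools. Wild-type pool 3 was thus the highest pool by one probe set and the lowest by the other, and the groups overlapped in both. The log2 differences were -0.025 (95% interval -0.37 to 0.32) and 0.043 (95% interval -0.28 to 0.37), and without wild-type pool 3 they turned to 0.11 and -0.085. Spry1, the Sprouty gene not counted as cyclic, had ratios of 0.981, 0.994 and 1.123 in the Dll3neo/neo pools and 1.006, 0.923 and 1.234 in the wild-type pools. The third pool was the high one in both genotypes, and the log2 difference was -0.022 (95% interval -0.33 to 0.28), or 0.10 without wild-type pool 3.

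Spred proteins are Sprouty relatives that keep Ras from activating Raf. Spred1 was lower in the mutant by sign in all 3 of its probe sets. By 1423162_s_at its ratios were 0.951, 1.021 and 0.845 in Dll3neo/neo pools 1, 2 and 3 and 1, 1 and 1.279 in wild-type pools 1, 2 and 3. The log2 difference was -0.21 (95% interval -0.52 to 0.094), or -0.10 without wild-type pool 3, the highest of the 6. Probe set 1423161_s_at gave 1.053, 1.04 and 0.633 in the Dll3neo/neo pools and 0.929, 0.96 and 1.291 in the wild-type pools. Its log2 difference of -0.24 (95% interval -0.72 to 0.23) came to -0.0022 without Dll3neo/neo pool 3 and to -0.094 without wild-type pool 3. The remaining probe set, 1423160_at, had 0.965, 0.927 and 1.091 in the Dll3neo/neo pools and 0.708, 1.035 and 1.364 in the wild-type pools, where the wild type spanned the mutant values and the log2 difference was -0.011 (95% interval -0.48 to 0.46). It was 0.21 without wild-type pool 3 and -0.26 without wild-type pool 1.

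Spred2 was higher in the mutant by sign in both of its probe sets. By 1434403_at its ratios were 1.034, 0.966 and 1.202 in the Dll3neo/neo pools and 0.915, 0.845 and 1.125 in the wild-type pools, a log2 difference of 0.15 (95% interval -0.16 to 0.47) with overlapping groups. It was 0.066 without Dll3neo/neo pool 3, 0.067 without wild-type pool 2 and 0.27 without wild-type pool 3. By 1423001_at they were 0.985, 0.996 and 1.023 in the Dll3neo/neo pools and 1.004, 1.047 and 0.837 in the wild-type pools. The log2 difference there was 0.063 (95% interval -0.21 to 0.33), and -0.034 without wild-type pool 3. Averaged over both probe sets the Spred2 ratios were 1.01, 0.981 and 1.11 in the Dll3neo/neo pools and 0.958, 0.941 and 0.97 in the wild-type pools. These averages did not overlap and differed by 0.11 on the log2 scale, where 4.95% of all genes had averages without overlap in either direction. Of the 9 member genes 1 was higher without overlap, Spred2, and 1 lower, Spry4. The Spry4 averages came as close as 0.997 in Dll3neo/neo pool 3 and 0.999 in wild-type pool 2.

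Dusp6 encodes the cytoplasmic ERK phosphatase and is widely used as a reporter of FGF activity. Its single probe set 1415834_at had ratios of 0.969, 1.012 and 0.864 in Dll3neo/neo pools 1, 2 and 3 and of 1.049, 0.988 and 1.138 in wild-type pools 1, 2 and 3. The third pools, lowest in the mutant and highest in the wild type, lay furthest apart, and Dll3neo/neo pool 2 exceeded wild-type pool 2. Means were 0.948 ± 0.0761 in the mutant and 1.06 ± 0.0754 in the wild type (SD, n = 3 each), a log2 difference of -0.16 (SE 0.12, 95% interval -0.42 to 0.10). It was -0.093 without Dll3neo/neo pool 3 and -0.11 without wild-type pool 3. Dusp2, a nuclear ERK phosphatase gene described as cyclic, had ratios of 1.089, 1.052 and 0.92 in the Dll3neo/neo pools and of 1.094, 0.948 and 0.873 in the wild-type pools by its probe set 1450698_at. The third pool was the lowest in both genotypes, and the log2 difference was 0.073 (95% interval -0.21 to 0.36), or -0.001 without wild-type pool 3.

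Etv4 and Etv5 encode the Pea3-family ETS factors that are induced by FGF and act on its target genes. Etv4, by 1423232_at, had ratios of 1.045, 0.88 and 1.013 in the Dll3neo/neo pools and 1.098, 0.932 and 0.987 in the wild-type pools. Pool 2 was the low one in either genotype, and the log2 difference was -0.039 (95% interval -0.31 to 0.23). Etv5, by 1420998_at, had 0.968, 0.627 and 1.244 in the Dll3neo/neo pools and 1.154, 0.627 and 1.032 in the wild-type pools. Pool 2 again held the low value in both genotypes, at the same ratio of 0.627, and the log2 difference of 0.0053 had the widest interval among the members (-0.62 to 0.63). By its other probe set, 1450082_s_at, Etv5 had 1.066, 0.827 and 0.893 in the Dll3neo/neo pools and 1.097, 0.942 and 1.058 in the wild-type pools, a log2 difference of -0.16 (95% interval -0.45 to 0.13) that was -0.078 without Dll3neo/neo pool 2.

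All 15 of the 95% intervals contained 0, and none reached a 2-fold difference in either direction. They lay within 1.5-fold for 13 of the 15 probe sets, the other two being Spred1 1423161_s_at (lower bound -0.72) and Etv5 1420998_at (bounds -0.62 and 0.63). Intervals of this kind are not adjusted for the number of probe sets. The median distance from the difference to either end of its interval was 0.304 on the log2 scale for the member probe sets. It was 0.298 for all probe sets. With 3 pools a genotype, a difference smaller than the distance to its own interval ends could not be told from 0. Some larger ones did not pass after adjustment. Nrarp 1417985_at at -0.65 and Hes7 at -0.43 did not pass the threshold.

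**Figure D2:**
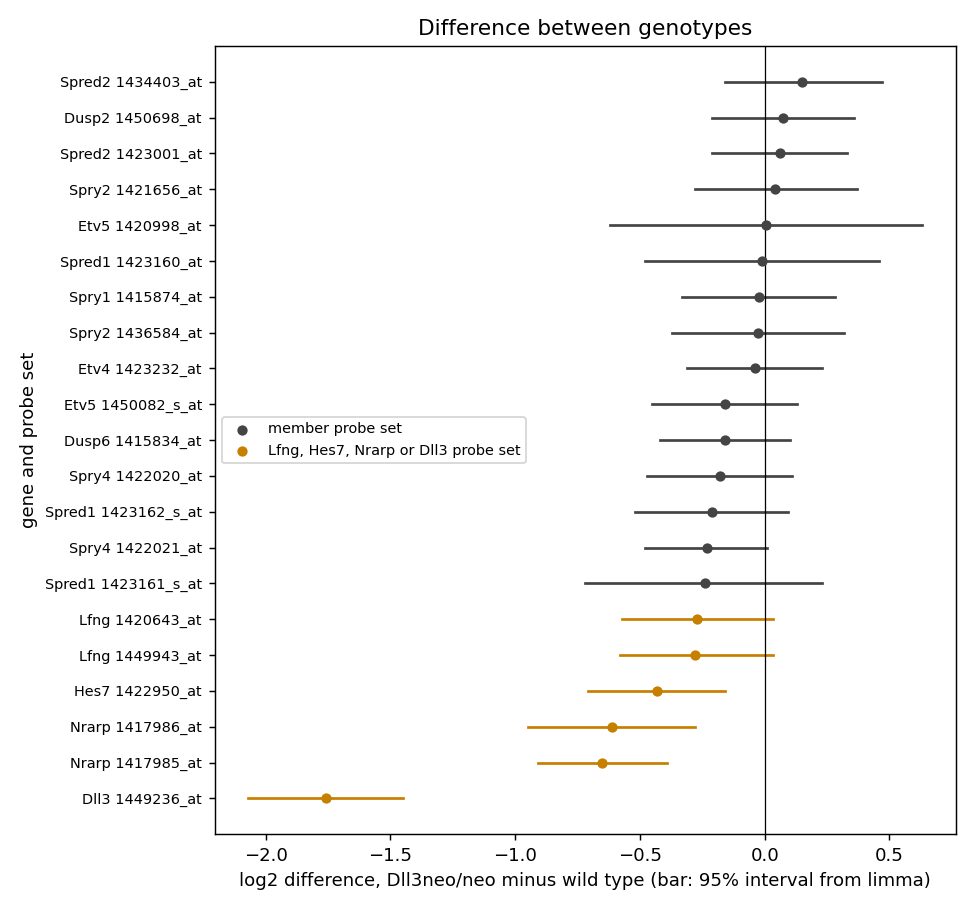
Log2 difference between genotypes, Dll3neo/neo minus wild type (x axis), for the 15 member probe sets in grey and for Lfng, Hes7, Nrarp and Dll3 in orange, each with its 95% interval from limma. All 15 member intervals cross 0, as do those of both Lfng probe sets (upper bounds 0.035 and 0.032), while those of Hes7 (-0.71 to -0.16), of the 2 Nrarp probe sets and of Dll3 (-2.07 to -1.45) lie below it.

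Cyclic and other members were set side by side by their gene averages, without a test. Of the 4 cyclic genes measured, Spry4 (-0.21) and Dusp6 (-0.16) were lower in the mutant by sign, and Spry2 (0.0088) and Dusp2 (0.073) were higher, with a median log2 difference of -0.075. Of the 5 other genes, Spred1 (-0.16), Etv5 (-0.076), Etv4 (-0.039) and Spry1 (-0.022) were lower and Spred2 (0.11) was higher, with a median of -0.039. Without wild-type pool 3 only 2 of these 5 were lower, Etv4 (-0.051) and Etv5 (-0.02), while Spred1 came to 0.0079 and Spry1 to 0.10. Over all 9 genes the median was -0.039, beside 0.0028 over all 12393 genes, of which 48.9% were lower. The median log2 ratio of the cyclic genes was -0.047, 0.045 and -0.094 in Dll3neo/neo pools 1, 2 and 3, and 0.10, -0.026 and 0.078 in wild-type pools 1, 2 and 3. That of the others was 0.013, -0.028 and 0.076 in the Dll3neo/neo pools and 0.0086, -0.10 and 0.063 in the wild-type pools. Both groups of genes overlapped between the genotypes in these medians, and without wild-type pool 3 the median differences were -0.053 for the cyclic genes and 0.0079 for the others.

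**Figure D3:**
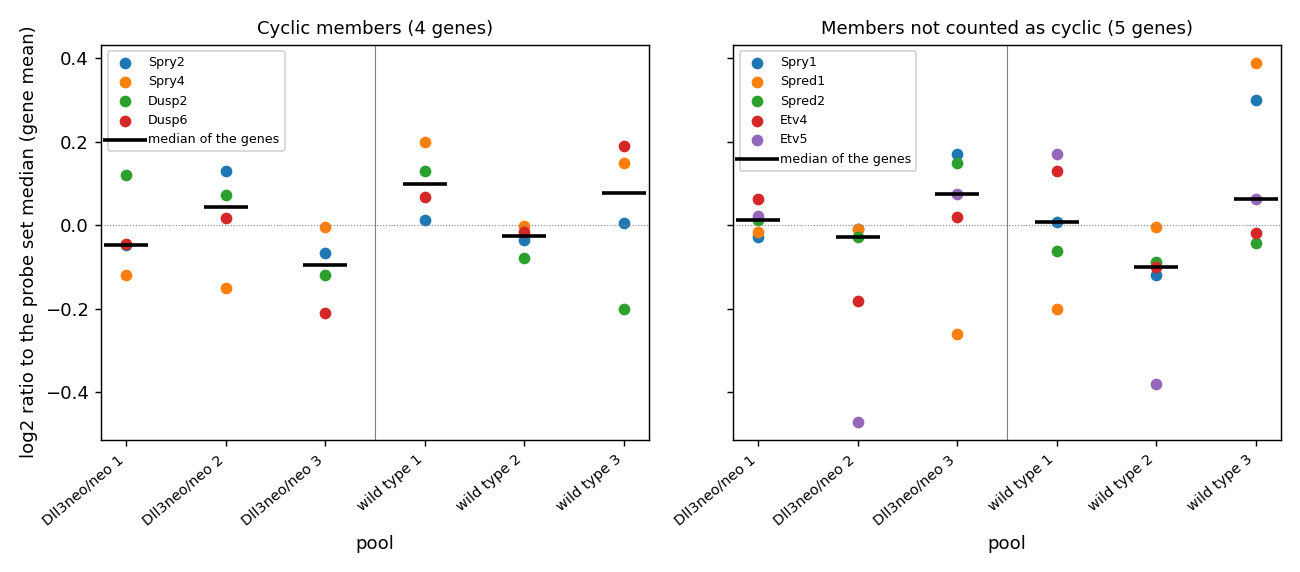
Log2 ratio of each member gene, averaged over its probe sets (y axis), in the 3 Dll3neo/neo pools and the 3 wild-type pools (x axis), for the 4 cyclic genes on the left and the 5 others on the right, with a black bar at the median of the genes in each pool. The medians of the cyclic genes lie between -0.094 and 0.045 in the Dll3neo/neo pools and between -0.026 and 0.10 in the wild-type pools.

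Probe sets of 1 gene did not always move together over the pools. As a description over the 6 arrays, which these probe sets share, Pearson's r was -0.72 between the Spry2 probe sets, -0.46 between those of Spred2, 0.53 for Etv5 and 0.60 for Spry4. For Spred1 it was 0.88 between 1423161_s_at and 1423162_s_at and 0.23 and 0.43 between 1423160_at and each of these. The mean log2 profile of the 9 genes was -0.0036, -0.071 and -0.028 in the Dll3neo/neo pools and 0.052, -0.091 and 0.093 in the wild-type pools. Among 11781 other genes the profiles most like it over the 6 arrays were those of Scd1 (r = 0.9953), Bard1 (r = 0.9938), Sema3a (r = 0.9807), Usp24 (r = 0.9806) and Anxa9 (r = 0.9582). With so few arrays such likeness is a description of these pools.

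Other genes of the FGF and ERK pathway gave 0 calls. Among FGF ligands, receptors and components of the ERK cascade, 12 of 23 measured genes were lower in the mutant by sign and 11 higher, with a median log2 difference of -0.0081. Without wild-type pool 3, 9 were lower and the median was 0.012. The differences furthest from 0 were those of the ligand gene Fgf17 (-0.28, or -0.12 without wild-type pool 3), of Sos2, an activator of Ras (-0.25, or 0.063 without wild-type pool 3), and of Braf, a Raf kinase gene (-0.20, without overlap). Fgf8, which encodes a tail bud ligand, had ratios of 0.964, 0.955 and 1.045 in the Dll3neo/neo pools and 0.993, 1.007 and 1.448 in the wild-type pools, where wild-type pool 3 alone stood high. Its log2 difference of -0.20 was -0.019 without that pool. Besides Braf, 2 of these 23 genes had groups without overlap and were named after their values were seen: Ptpn11 (-0.14) and the receptor gene Fgfr2 (0.10). Over all genes 4.95% had groups without overlap.

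Other family members of the Dusp type, 7 measured, were higher in the mutant by sign for 5 and lower for 2, with a median of 0.073. They included Dusp1, an immediate early phosphatase gene (0.21), Dusp9 (0.15) and Dusp16 (-0.14). Without wild-type pool 3 these differences were 0.44, 0.25 and -0.0024. Dusp8, named after its values were seen, was the 1 of them without overlap (-0.13). Over all genes 4.95% had groups without overlap, and 1.84% did so with the mutant lower. Among 15 other inhibitors and targets of the pathway, 12 were lower by sign and 3 higher, with a median of -0.028. Without wild-type pool 3 only 7 were lower and the median was 0.0092. The furthest from 0 were Hes7 (-0.43, without overlap), the ubiquitin ligase gene Cbl (-0.35, without overlap) and Egr1, an early response gene to ERK (0.25). Il17rd, an FGF antagonist of the same feedback group and also named after its value was seen, differed by -0.044.

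Notch targets of the clock were read in the same pools, and none of them passed over all probe sets. Nrarp, a Notch feedback inhibitor, had ratios averaged over both probe sets of 0.837, 0.685 and 0.851 in the Dll3neo/neo pools and 1.12, 1.2 and 1.35 in the wild-type pools (log2 difference -0.63). Hes7, a clock repressor that depends on Notch and FGF input, had 0.72, 0.842 and 0.916 in the Dll3neo/neo pools and 1.089, 1.159 and 1.084 in the wild-type pools (-0.43). Lfng, a Notch-modifying glycosyltransferase gene, differed by -0.27, and the 95% intervals of both its probe sets contained 0. This list shares Hes7 with the other inhibitors and targets above. Of these 9 clock targets 8 were lower by sign, with a median of -0.20, or -0.10 without wild-type pool 3. Of the 9, 3 lay without overlap, where 1.84% of all genes lay lower without overlap. Whether this list differed from the FGF and ERK members was not tested.

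Markers of the dissected tissue were read in the same pools, and none of them passed. All 9 measured markers of posterior presomitic mesoderm and tail bud, a list that shares Hes7 and Fgf8 with those above and is not separate evidence, were lower in the mutant by sign (median -0.22), with Tbx6, which specifies paraxial mesoderm, at 0.794, 0.773 and 0.979 in the Dll3neo/neo pools and 1.116, 1.021 and 1.192 in the wild-type pools. The median log2 ratio of these markers was -0.12, -0.25 and 0.10 in the Dll3neo/neo pools and 0.16, 0 and 0.25 in the wild-type pools. Of 10 somite markers 9 were higher in the mutant by sign (median 0.13), with pool medians of 0.011, 0.16 and -0.11 in the Dll3neo/neo pools and -0.32, 0.043 and -0.19 in the wild-type pools. This was not particular to somite markers. Higher too were 7 of 8 lateral plate and limb markers (median 0.13), 6 of 7 endothelium (0.12) and 7 of 8 gut and visceral endoderm markers (0.091). So were all 7 heart muscle, 4 of 8 neural, 4 of 7 surface ectoderm and 3 of 5 erythroid markers. Over all genes 48.9% were lower by sign. The part of tissue make-up in the Spry4 and Dusp6 values was not tested.

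**Figure D4:**
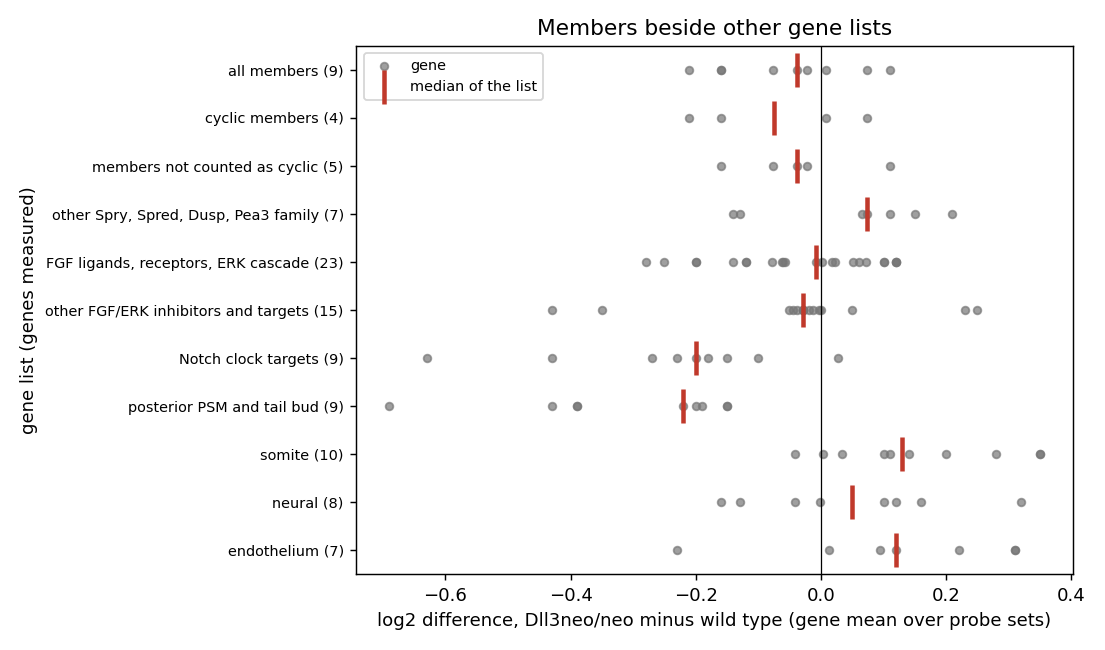
Log2 difference between genotypes, Dll3neo/neo minus wild type (x axis), of each measured gene as a grey point, with a red mark at the median of each list (y axis, with the number of genes measured). The median of the members is -0.039, beside -0.20 for Notch clock targets (-0.10 without wild-type pool 3), -0.22 for posterior presomitic mesoderm and tail bud markers, 0.13 for somite markers and 0.12 for endothelium markers.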

How the data were processed

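Total RNA of 6 pools was hybridised to 1 Affymetrix MOE430A array each, and the number of arrays limits the precision. The deposited values are linear ratios. By the values, the authors divided most probe sets by their own median over the 6 arrays, which is 1 within 0.0011 for 92.8% of probe sets. For 1640 probe sets the median lies below 1. The submitters' processing notes list RMA and MAS5, giving neither a role nor an order, and any normalization between arrays is not stated in the sources used here. After leaving out 64 control probe sets, log2 ratios without an offset were fitted for 22626 probe sets by lmFit and eBayes of limma 3.58.1 (R 4.3.3), two-sided, with genotype as sole term, with Benjamini-Hochberg adjustment over all of them and a threshold of 0.05. Differences are Dll3neo/neo minus wild type. An exact permutation test of 3 against 3 pools cannot go below 0.10, so none was used. The fit was tested on simulated data. A gene with several probe sets was averaged over them. By the platform annotation 20380 probe sets have 1 symbol, 691 several and 1555 none listed. A RefSeq table (GRCm38.p6) gave current symbols for the 20351 probe sets whose Entrez ID it held, and promoter windows are RefSeq's.

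The members and lists were chosen with earlier results of these data known. Named genes were all members, the 3 genes of each pathway list furthest from 0, Dll3, Hes7, Nrarp, Lfng, Fgf8, Tbx6 and the 5 genes with the most similar profile. Alternatives were quantile normalization, centring, offsets of 1 and 32, a filter on medians below 1, trend and robust variances, array weights, a replicate block, another choice of probe set and leaving out each pool. Python 3.11.15 and matplotlib 3.10.9 drew the plots.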

Additional observations from a re-analysis of the deposited data

How the results depend on the processing

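No member probe set passed the threshold under any of the 14 alternatives run on the fit. Those with an unadjusted p under 0.05 numbered 3 with array weights (smallest limma adjusted p = 0.164), 1 on the log2(value + 32) scale and 0 otherwise. Over all 22626 probe sets that number was 3641 with array weights, against 262 in the main fit. Of all probe sets 1 passed, 2 with quantile normalization, 4 with array weights, 0 on the log2(value + 32) scale, where 262 had an unadjusted p under 0.05, and 0 to 1 without 1 pool. Deviations of same-numbered pools correlated at 0.21, 0.017 and 0.17. Pools of different number were not compared, so these values cannot decide whether replicate numbers pair the pools. With the replicate number as a block 434 of all probe sets had an unadjusted p under 0.05. In that fit 0 member probe sets and 1 of all passed, and the members' median stayed at -0.039. That median was 0.05 with array weights, which rest mainly on wild-type pool 2 among the wild type, and -0.11 to 0.018 without 1 pool. On the log2(value + 32) scale the offset shrinks every difference, that of Dll3 from -1.76 to -0.052, and the cyclic median was -0.0024. The cyclic median was -0.0028 with array weights and -0.12 to -0.025 without 1 pool. For the other members it was 0.13 with array weights and -0.11 to 0.036 without 1 pool.

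Of 210 member values under alternatives 24 changed sign, and 7 of the 15 probe sets never did: both of Spry4, that of Dusp6, Spred1 1423161_s_at and 1423162_s_at, Spred2 1434403_at and Etv5 1450082_s_at. With quantile normalization Spry1 turned to 0.054, Spry2 1436584_at to 0.041 and Spred1 1423160_at to 0.032. With array weights Spry1 turned to 0.16, Spry2 1436584_at to 0.069, Spred2 1423001_at to -0.063 and Etv4 to 0.05. Without 1 pool the log2 difference ran from -0.11 to 0.10 for Spry1, from -0.085 to 0.16 for Spry2 1421656_at, from -0.13 to 0.11 for Spry2 1436584_at and from -0.26 to 0.21 for Spred1 1423160_at. It ran from -0.034 to 0.13 for Spred2 1423001_at, from -0.001 to 0.16 for Dusp2, from -0.092 to 0.036 for Etv4 and from -0.26 to 0.27 for Etv5 1420998_at. The causes were not tested.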
